A study of Mus musculus with 4 samples.

Results

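The cells described here are spermatids of the mouse testis with high levels of Prss51 and Cst13. They were chosen by measured values: within each of the libraries A0 and A10, the 450 cells with the highest mean of the deposited log values over Prss51, Cstl1, Cypt15, Prss52, Gm136 and Cst13 were taken. They made up 5.03% of the 8941 cells of A0 and 4.65% of the 9682 cells of A10, that is 900 of 18623 cells, in a series of 27060. A0 was the vehicle control (water) and A10 received alginate oligosaccharides (AOS) at 10 mg/kg body weight. Both came from ICR mice, an outbred stock, that were 3 weeks old at the start, and neither received busulfan. The other groups, B0, given only busulfan, and BA10, given busulfan and then AOS at 10 mg/kg, are used here only to ask whether such cells were present. Each group was 1 library of cells from 6 pooled mice, measured with droplet single-cell RNA sequencing of 3′ ends, so there is no replicate, no animal can be told apart and no test between groups was possible.

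Spermatids are the haploid cells that follow meiosis. They start round, build the acrosome (the enzyme-filled cap of the sperm head) and the tail, and then elongate while histones are replaced first by transition proteins and then by protamines, which compact the nucleus. Transcription stops as the chromatin is compacted, and many messages made earlier are stored for later translation. Serine proteases of the Prss family and cystatins, a family of inhibitors of cysteine proteases, are among the genes that spermatids and the male tract use in many copies.

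Levels are given as counts of unique molecular identifiers (UMIs, 1 per captured transcript) summed over a set of cells and scaled to 1000000 (CPM). A ratio is the log2 of CPM plus 1 in the chosen cells over CPM plus 1 in all other cells of the same library, and its 95% interval, computed from the UMI sums without the added 1, covers counting error only. Total depth was 150812974 UMIs in A0 and 143714595 in A10. The chosen cells held a median of 12053 UMIs in A0 and 10060 in A10, against 12726 and 11017 in the other cells. They shared 0 cell barcodes with each other, while the whole libraries shared 135. Scrublet, a tool that marks likely doublets, called 0.222% of the chosen cells in each library, against 8.48% (A0) and 9.07% (A10) of the others.

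The 6 genes that chose the cells lie at 4 places in the genome (mm10). Prss51 (chr14:64086234-64097678, plus strand) and Prss52 (chr14:64104286-64113755, plus strand) are neighboring serine protease genes. Cstl1 (chr2:148750358-148755433, plus strand) and Cst13 (chr2:148820081-148830410, plus strand) belong to a row of cystatin genes. Cypt15 (chrX:39346267-39346963, plus strand) is a member of the cysteine-rich perinuclear theca family, named for the layer around the sperm nucleus, and Gm136 (chr4:34743784-34756263, minus strand) has only a model name. RefSeq promoter windows (GRCm38.p6) were at hand for 4 of the 6 genes. The 250 bases before the start of the cystatin genes are shown because both genes were among the 6 and their windows share an unbroken run of 13 bases, in capitals, which starts 69 bases before the start of Cstl1 and 52 bases before that of Cst13. These distances are from the RefSeq starts, just after each window, which lie inside the genes as placed above from GENCODE. They are chr2:148750111-148750360 and chr2:148819849-148820098, both on the plus strand.
Cstl1: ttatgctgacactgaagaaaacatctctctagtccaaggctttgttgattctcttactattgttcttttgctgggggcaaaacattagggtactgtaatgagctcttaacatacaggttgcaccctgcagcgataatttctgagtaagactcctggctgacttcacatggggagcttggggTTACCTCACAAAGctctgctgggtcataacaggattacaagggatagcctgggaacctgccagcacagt
Cst13: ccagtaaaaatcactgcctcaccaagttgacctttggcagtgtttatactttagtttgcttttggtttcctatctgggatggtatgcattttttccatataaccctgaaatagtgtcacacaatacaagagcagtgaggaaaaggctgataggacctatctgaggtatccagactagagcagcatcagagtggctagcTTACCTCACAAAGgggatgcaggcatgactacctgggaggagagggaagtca
The run TTACCTCACAAAG was chosen after the windows were compared. On either strand it stood in 4 of 32851 promoter windows (0.0122%), which belonged to Cst13, Cstl1, Gm34475 and Rsbn1. The other pairs among the 4 windows (Cstl1, Cypt15, Gm136, Cst13) shared runs of 8 or 9 bases. The cAMP response element TGACGTCA, searched on both strands, was in none of the 4 windows before the start, and was in 2.56% of the 300-base windows of genes at least 2-fold higher in the chosen cells and 3.52% of those of the other genes past the filter below. A match is only a match of letters, and no match says nothing about a factor.

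The values of the 6 genes in the chosen cells follow from the choice and are given as a description. Cst13 stood at 1892 CPM in the chosen cells of A0 against 248 in the others, and at 1832 against 231 in A10. Cstl1 stood at 1057 against 181 CPM in A0 and at 1118 against 153 in A10. The cystatin gene Cst13 had at least 7 UMIs in every chosen cell of A0 and at least 5 in every chosen cell of A10. The proteases followed the same order between sets, Prss51 with 477 against 50.9 CPM (A0) and 459 against 47.2 (A10), and Prss52 with 720 against 80.7 (A0) and 664 against 69.7 (A10). Gm136 had 568 against 76.7 CPM in A0 and 548 against 68.9 in A10, and Cypt15 had 305 against 44.4 and 383 against 48.5. All 6 genes were seen together in 445 of the 450 chosen cells of each library, and 5 of the 6 in the remaining 5 cells.

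**Figure D1:**
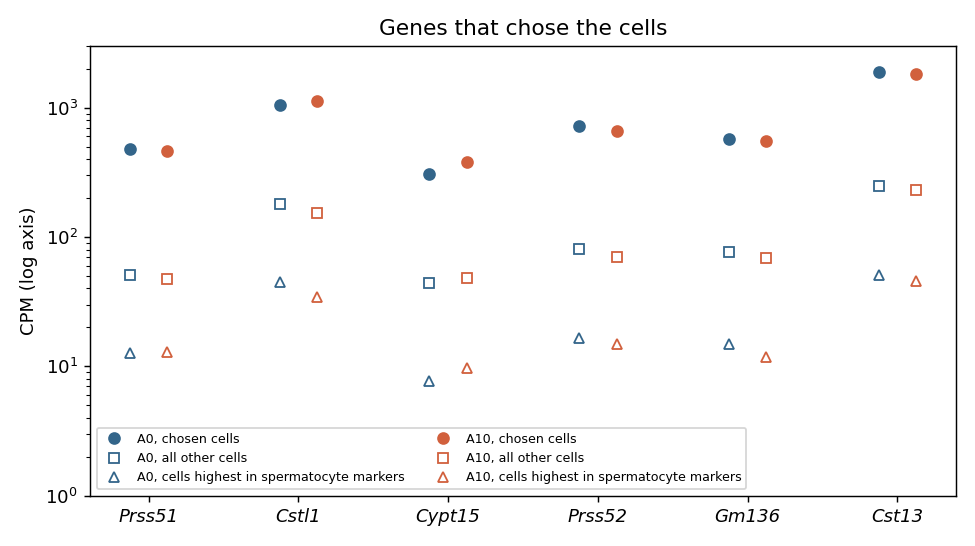
CPM (log axis) of the 6 genes that chose the cells, in the chosen cells (filled circles), all other cells (open squares) and the 450 cells highest in spermatocyte markers (open triangles) of A0 and A10, 1 point per set and library with no replicates. Every filled circle lies above 300 CPM, and every triangle lies below 60 CPM.

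Cells highest in spermatocyte markers also held UMIs of these genes. Whether these UMIs came from free RNA in the droplets, from doublets or from the cells themselves was not tested. In the 450 cells highest in spermatocyte markers, Cst13 was seen in 34.2% of cells in A0 and 36.7% in A10, at 51.2 and 45.4 CPM, and Prss51 was seen in 13.6% and 11.6%, at 12.6 and 12.8 CPM. Median depth there was 12183 (A0) and 11828 (A10) UMIs per cell. The mean log value, used as a score, ran from 2.43 down to 1.9091 in the chosen cells of A0, and the next cell had 1.9080. In A10 it ran from 2.41 to 1.9290, and the next cell had 1.9288. The other cells had a median score of 0.21 in A0 and 0.22 in A10. Within 0.05 below the lowest chosen score lay 102 cells in A0 and 89 in A10. The number of cells was fixed at 450, so the score alone does not say where such cells end.

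Each gene was also looked at in cells chosen by the other 5 genes. The 6 were picked together on these data, so the values are a description. Prss51 was then at 430 CPM in the chosen cells of A0 against 52.9 in the others, and at 403 against 49.4 in A10, a log2 ratio of 3.00 in each library. Cst13 had log2 ratios of 2.77 (A0) and 2.89 (A10), and Prss52 had 2.96 and 3.00. The lowest ratios were those of Cstl1 in A0, 2.37, and Cypt15 in A0, 2.44. After every cell was thinned to 6500 UMIs, Prss51 was seen in 93.3% of cells chosen without it in A0 and 93.8% in A10, against 21.8% and 22% of the others. Between 84.7% and 92% of the cells were the same as with all 6 genes.

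Neighborhoods were also drawn without the 6 genes. Among the 30 nearest neighbors of a cell, found within its library from 30 principal components of 2000 variable genes without the 6, more than 50% were chosen cells for 364 of the 450 chosen cells of A0 (80.9%, 95% exact binomial interval 76.9 to 84.4). In A10 this held for 314 of 450 (69.8%, 65.3 to 74). The same was true of 1.77% of the other cells of A0 and 1.88% of those of A10. Chosen cells are neighbors of each other and so are not independent, and the intervals do not compare the libraries. The neighbors that were not chosen came mostly from just outside: 81.4% of them in A0 and 79.3% in A10 ranked within the first 900 cells by score. The share depended on how many cells were chosen: with 50% as many it was 37.3% in A0 and 7.56% in A10, and with 900 it was 88% and 88.7%.

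Along that rank, levels were graded in both libraries. Spaca1, an acrosomal membrane protein gene of rounder spermatids, went from 37.9 CPM in ranks 1 to 150 of A0 to 74.7 in ranks 301 to 450, 184 in ranks 451 to 900 and 588 in ranks 1801 to 3600. In A10 the same bands held 35.3, 66.6, 155 and 516 CPM. In the last band, from rank 3601 on, Spaca1 was lower again, at 355 CPM in A0 and 312 in A10. Acrv1, which encodes an acrosomal vesicle protein, went from 33.4 to 60.6 and 83 CPM over the 3 bands of chosen cells in A0 and from 29.9 to 52.7 and 73.7 in A10. Tnp2, the gene of a transition protein, went the other way, from 30156 CPM in the first 150 cells to 24709 in ranks 451 to 900 and 11072 in ranks 1801 to 3600 of A0. The chosen cells were thus not uniform among themselves, and those with the highest score had the lowest Spaca1 and Acrv1. Hemgn was lowest in the first of the 3 bands of chosen cells, at 413, 495 and 506 CPM in A0 and 386, 478 and 487 in A10. Beyond them it fell with rank, from 499 CPM in ranks 451 to 900 to 86.9 in ranks 1801 to 3600 of A0, and from 493 to 90.7 in A10. Genes per cell, counted after thinning to 6500 UMIs, had a median of 1840 in the chosen cells of A0 against 2492 in the others, and 1809 against 2474 in A10.

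**Figure D2:**
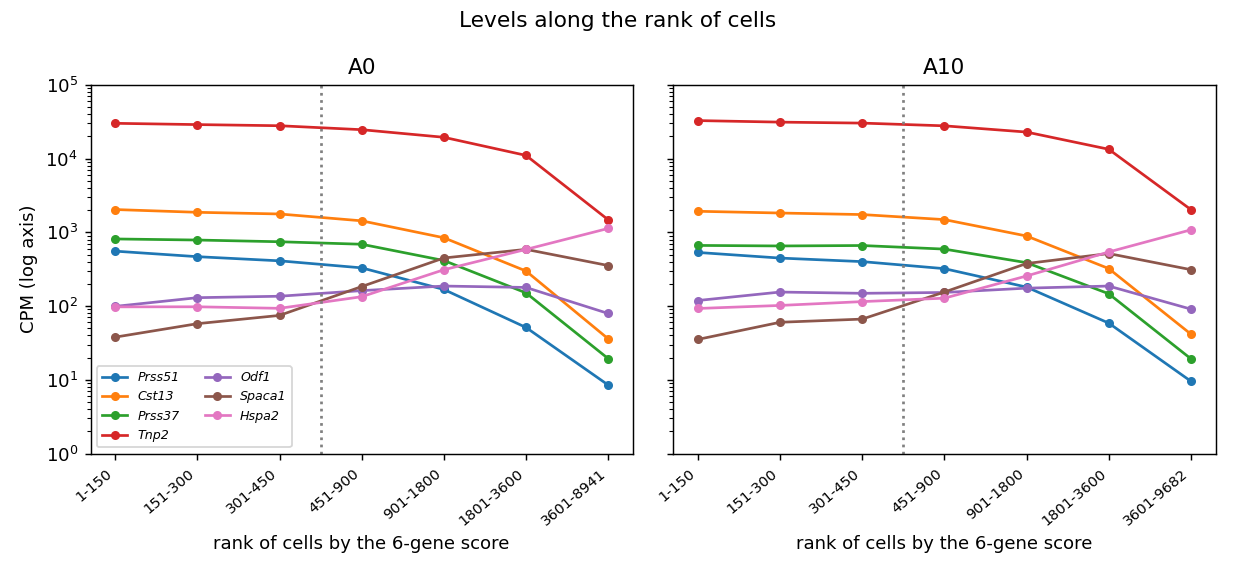
CPM (log axis) of 7 genes in consecutive bands of cells ranked by the 6-gene score, in A0 (left) and A10 (right), with the dotted line at the end of the 450 chosen cells. Prss51 and Cst13 fall by construction, Tnp2 falls from 30156 to 1483 CPM in A0, and Spaca1 is lowest in the first band, with 37.9 CPM in A0 and 35.3 in A10.

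Against all other cells, 9446 genes had a UMI in at least 5% of the chosen or the other cells of a library. Of these, 1112 (11.8%) were at least 2-fold higher in the chosen cells in both libraries and 5027 (53.2%) at least 2-fold lower in both. The median gene was lower, at a log2 ratio of -1.23 in each library. With ratios taken relative to that median, 2543 genes were higher and 1862 lower, so that the higher genes went from 18.1% to 57.7% of all calls. Directions below are those of CPM. Genes with a log2 ratio between -1.23 and 0 are above the median gene although below the other cells in CPM. No gene was 2-fold higher in one library and 2-fold lower in the other. A gene could pass the filter of 5% through only the chosen or only the other cells, which favors a difference. Of the 9446 genes, 6739 were seen in at least 5% of the chosen cells of A0 or A10. The rest passed only through the other cells, which favors a lower ratio. They are part of the 53.2% and of the median gene used as references below.

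Genes of late spermatids were high as a group beside all other cells. The list holds 7 genes of nuclear proteins (Prm1, Prm2, Prm3, Tnp1, Tnp2, Hils1 and H1fnt), the kinase gene Tssk6 and Car2, the gene of a cytosolic carbonic anhydrase. All 9 were at least 2-fold higher in both libraries, beside 11.8% of all genes, with a median log2 ratio of 1.75 in A0 and 1.76 in A10, against -1.23 over all genes. Tnp2 had 29004 CPM in the chosen cells against 6582 in the others of A0, and 31461 against 7114 in A10. Prm1, a protamine gene, had 40494 against 11096 CPM in A0 and 56623 against 15132 in A10, and Prm2, the other protamine, had 46012 against 14190 and 47549 against 14837. Hils1, which encodes a spermatid linker histone, had 4306 against 1277 CPM in A0 and 3936 against 1158 in A10. Prm1, Prm2, Prm3, Tnp1 and Tnp2 together took a median of 13.4% of the UMIs of a chosen cell in A0 (lowest 7.98%, highest 18.5%) and 16% in A10 (9.04% to 20.7%). In the other cells the medians were 0.931% and 1.26%. Prm1 was seen in 100% of cells of every set, and the cells highest in spermatocyte markers held it at 3029 CPM in A0 and 3638 in A10, so a UMI of Prm1 in a cell does not mark a spermatid here.

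Genes of meiosis were low. Of the 20 spermatocyte genes past the filter, 18 were at least 2-fold lower in both libraries and 0 higher, beside 53.2% and 11.8% of all genes. With the median gene as reference 16 were lower and 1, Pgk2, was higher. The median log2 ratio of the list was -3.14 in A0 and -3.18 in A10. Spo11 and Tdrd5, both among the lower genes, were seen in under 5% of the chosen cells of each library. They passed the filter only through the other cells. Dmc1, which did not pass, had 2.09 against 0.795 CPM in A0 and 4.03 against 0.708 in A10. Hspa2, a chaperone of meiotic cells, had 96.1 CPM in the chosen cells against 879 in the others of A0 and 104 against 867 in A10. Sycp3, a component of the synaptonemal complex that joins chromosomes in meiosis, had 16.9 against 174 CPM in A0 and 18 against 193 in A10. The 2 genes that were not lower by that much were Pgk2 and Ldhc, enzymes of sperm energy metabolism that spermatids go on using: Pgk2 had log2 ratios of 0.82 and 0.77, and Ldhc -0.19 and -0.35, or 1.04 and 0.89 relative to the median gene.

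The acrosome list as a whole lay near the median of all genes past the filter. The 2 are not filtered alike: all 21 acrosome genes were seen in at least 5% of the chosen cells of a library. The median of all genes also covers genes that passed only through the other cells. Of 21 genes past the filter, 13 were at least 2-fold lower in both libraries, where 53.2% of all genes were, and 1 was higher, where 11.8% were, with a median log2 ratio of -1.37 in A0 and -1.43 in A10, or -0.15 and -0.20 relative to the median gene. Zpbp2, whose protein binds the egg coat, had 45 against 719 CPM in A0 and 62.6 against 734 in A10. Spam1, a sperm hyaluronidase gene, had 10.3 against 83 CPM in A0 and 9.02 against 84.9 in A10. The gene that was higher was Sppl2c, an intramembrane protease of spermatids, with 458 against 126 CPM in A0 and 403 against 110 in A10. Relative to the median gene, 3 of the 21 were higher and 7 lower. Among genes at least 2-fold lower in CPM, Spaca3 and, in A10, Izumo1 turned from lower to slightly higher. Spaca4, Hyal5, Tmem190, Lyzl1 and Lyzl4, which were less than 2-fold lower in CPM, turned as well.

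Of 21 genes of the flagellum and its sheath, 11 were at least 2-fold higher in both libraries, beside 11.8% of all genes, and 5 lower, beside 53.2%. Relative to the median gene, 14 were higher and 2 lower. Those higher included Akap3 and Akap4, scaffold proteins of the fibrous sheath, with log2 ratios of 1.66 and 1.27 in A0 and 1.65 and 1.31 in A10. Smcp, a protein of the sperm mitochondrial capsule, had 7517 against 3275 CPM in A0 and 7138 against 2989 in A10. Those lower were Ccdc39, Spag6l, Tekt1, Tekt2 and Dnah1, all of them components of the axoneme or needed to build it, with log2 ratios between -4.10 and -1.94 in A0. Relative to the median gene Tekt1 and Tekt2 were under 2-fold lower, at -0.71 and -0.92 in A0, and so was Dnah1 in A10, at -0.93. That the lower genes are of the axoneme was seen after their values. Odf1, an outer dense fiber gene, was close to the other cells, at 122 against 116 CPM in A0 and 141 against 119 in A10.

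Of 15 regulators of spermatid development, 5 were at least 2-fold higher in both libraries (11.8% of all genes) and 8 lower (53.2% of all genes). The kinase genes Tssk1, Tssk2 and Tssk3 were among the higher ones, as were Hook1, which encodes a protein of the manchette that shapes the nucleus, and Gsg1. Tssk2 had 2260 against 879 CPM in A0 and 1975 against 753 in A10. Crem, a transcription factor of round spermatids, had 146 against 474 CPM in A0 and 146 against 434 in A10, and Tbpl1, a relative of the TATA-binding protein, had log2 ratios of -3.45 and -3.32. Relative to the median gene, 7 of the 15 were higher and 2 lower, and Tssk4 turned from -1.10 to 0.13 in A0.

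Beyond Prss51 and Prss52, 16 serine protease genes passed the filter, of which 2 were at least 2-fold higher in both libraries and 7 lower, beside 11.8% and 53.2% of all genes. Relative to the median gene 5 were higher and 5 lower. The higher ones in CPM were Prss37 and Prss55, both known to be needed for male fertility in mice. Prss37 had 781 against 123 CPM in A0 (log2 ratio 2.65, interval 2.62 to 2.71) and 661 against 100 in A10 (2.71, 2.67 to 2.77). Prss55 had 346 against 80.8 CPM in A0 and 319 against 72.1 in A10. Acr, the gene of the acrosomal protease acrosin, had 48.4 against 212 CPM in A0 and 42.8 against 214 in A10, and Prss43 had log2 ratios of -3.97 and -3.69. Prss43 was seen in 2.44% of the chosen cells of A0 and 2.89% of those of A10, so it passed the filter only through the other cells. Of 7 listed genes of the Cypt family other than Cypt15, Cypt10 was absent from the data. The other 6 were all at least 2-fold higher in both libraries. Their log2 ratios ran from 1.62 (Cypt3) to 2.18 (Cypt12) in A0 and from 1.60 (Cypt4) to 2.22 (Cypt12) in A10. These copies resemble each other, so reads may be split among them in counting. Of 4 further cystatin genes past the filter, 1 was higher, Cst8, with 1814 against 503 CPM in A0 and 2072 against 532 in A10, and 3 were higher relative to the median gene.

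**Figure D3:**
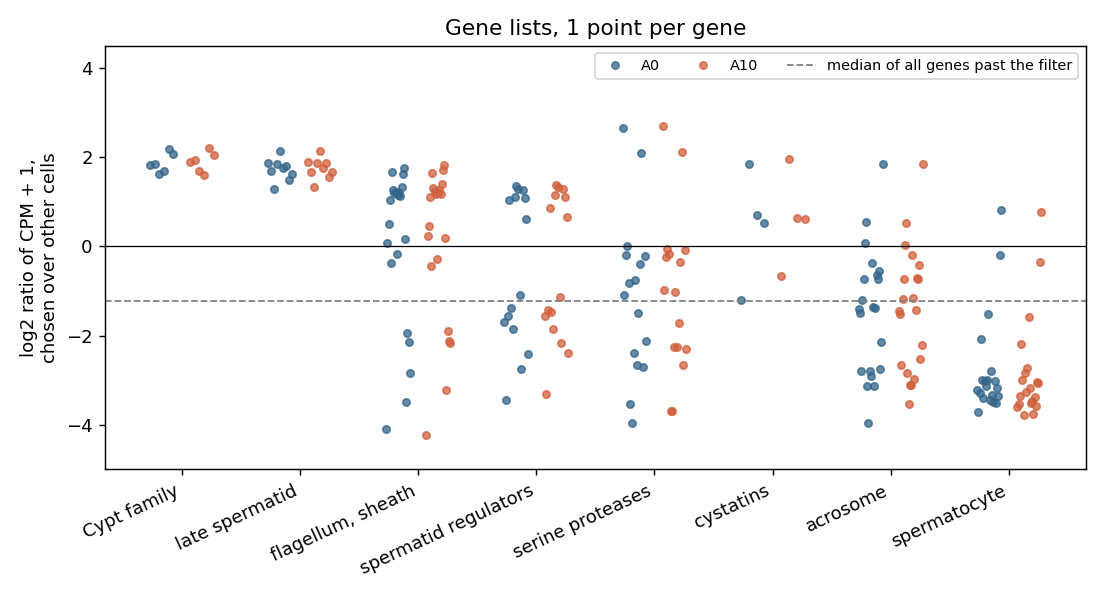
Log2 ratio of CPM plus 1 in the chosen cells over the other cells for the genes of 8 lists past the filter, in A0 and A10, 1 point per gene, with a solid line at 0 and a dashed line at the median of all 9446 genes in A0 (-1.23). All points of the Cypt family and of the late spermatid list lie above 1, while the spermatocyte genes have a median of -3.14 in A0, with Pgk2 and Ldhc well above it.

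On the chromosome, high levels in the chosen cells were not shared by all neighbors. Prss55 (chr14:64075438-64090162, minus strand) overlaps Prss51 over 3929 bases on the opposite strand, and the gene on the far side of Prss52, Msra, was at 2.41 against 5.53 CPM in A0 and 2.5 against 5.57 in A10. In the cystatin row, Cst12 and Cst9 lie on either side of Cst8 and Cst13. Cst12 had 26.2 against 18 CPM in A0 and Cst9 had 28.8 against 17.3, both under 2-fold. Cst11, between Cstl1 and Cst12, had 0 UMIs in the chosen cells of either library. Nxt1, a nuclear export gene beyond Cstl1, was at 31.2 against 429 CPM in A0 and 34.4 against 468 in A10.

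Outside the 6 genes, the highest ratio was that of Rnf144a, which encodes a ubiquitin ligase. It had 98.9 against 7.75 CPM in A0 (log2 ratio 3.51, interval 3.53 to 3.82 without the added 1) and 106 against 8.43 in A10 (3.50, 3.50 to 3.80). Ung, a uracil-DNA glycosylase of base excision repair, had 60.8 against 6.39 CPM in A0 and 60.3 against 6.04 in A10. Actrt3, an actin-related protein gene of the testis, had 493 against 64.7 CPM in A0 and 420 against 54.1 in A10. Trp53tg5 had 1008 against 140 CPM in A0 and 951 against 129 in A10, and was seen in 99.6% and 98.9% of chosen cells. The rest of the 15 genes highest by the lower of the 2 ratios, some of them above Actrt3 and Trp53tg5, were Gm30302, Faiml, Mphosph6, Insig1 (a regulator of sterol synthesis), Glt6d1, Ifngr2 (a subunit of the interferon gamma receptor), Sgip1, Cntn1, Lrrc69, Mgat4e and 1700016C15Rik, with log2 ratios from 2.66 to 3.05 in A0 and from 2.67 to 3.17 in A10.

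The 10 genes with the lowest ratios had varied roles. Cenpe, a kinetochore motor of dividing cells, had 3.05 against 107 CPM in A0 and 2.5 against 99.9 in A10, and Cenpf had log2 ratios of -4.36 and -4.46. Cenpe was seen in 4.22% of the chosen cells of A0 and 2.67% of those of A10, so it passed the filter only through the other cells. Nasp, a histone chaperone, had 86.2 against 1787 CPM in A0 and 108 against 1918 in A10. Lyar had 176 against 3897 CPM in A0 and 219 against 4043 in A10. Cdc42ep3, Psip1, Ccdc173, Slco6c1, Lrriq1 and Ccdc39 completed the 10 lowest, with log2 ratios from -4.73 to -4.10 in A0.

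Markers of other cell types were low, but not all lower than in the other cells. Summed over 6 Leydig cell markers, the chosen cells held 7.88 CPM in A0 and 7.49 in A10, and the other cells 16.5 and 22.4. The 7 Sertoli cell markers summed to 35.8 and 40.7 CPM against 21.5 and 24.6, and most of this was Clu (13.3 against 10.1 CPM in A0 and 17.1 against 12.1 in A10), Amhr2 (11.4 against 4.77 and 9.79 against 5.41) and Rhox8 (8.36 against 4.87 and 11.5 against 5.54). Amh was at 0 UMIs in the chosen cells of both libraries and Sox9 at 1.29 and 1.34 CPM. The part of Sertoli cell RNA in the results was not tested. The 8 macrophage markers summed to 24.6 and 25.9 CPM against 14.2 and 11.4. Of these, C1qb alone gave 23.1 and 24.6 CPM, with log2 ratios of 1.22 and 1.33, whereas its partners C1qa and C1qc were at or below 0.321 CPM and Lyz2 and Csf1r were at 0 UMIs in the chosen cells. The 7 peritubular and endothelial markers summed to 6.59 and 8.06 CPM against 6.47 and 5.54. Among 5 spermatogonial markers past the filter, 2 were at least 2-fold higher in both libraries and 3 lower, beside 11.8% and 53.2% of all genes, or 2 and 1 relative to the median gene. Uchl1 had 18 against 6.62 CPM in A0, and Stk31, among the lower ones, 3.86 against 45. Stk31 was seen in 4.67% of the chosen cells of A0 and 4.89% of those of A10, so it passed the filter only through the other cells. Sohlh1 had 13.2 against 2.49 CPM, but it was seen in 3.59% of the other cells of A0 and 2.48% of those of A10, so it passed the filter only through the chosen cells.

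The chosen cells were set beside other groups of 450 cells chosen in the same way. These were highest in Dcdc2c and Hemgn, Odf1 and Tssk6, Spam1 and Tssk5, protamine and transition protein genes with Car2, or spermatocyte markers. Among these groups, the chosen cells shared most cells with the Dcdc2c and Hemgn set, 147 in A0 (32.7% of each set) and 127 in A10 (28.2%). The 6 genes that chose the cells were high in that set too, shared cells included. Cst13 was there at 1570 CPM in A0 and 1506 in A10, and Prss51 at 340 and 303. Prss52 was at 561 and 495, Gm136 at 459 and 405, Cstl1 at 712 and 693 and Cypt15 at 205 and 235. All 6 were lower there than in the chosen cells, which were picked by them. With the shared cells left out, 303 cells of each set remained in A0 and 323 in A10. Fam209, a gene of the acrosome, then had 156 CPM in the chosen cells against 1257 in the Dcdc2c and Hemgn set in A0, and 182 against 1427 in A10. Tbc1d23 had 12.5 against 147 CPM in A0 and 12.8 against 177 in A10. Trp53tg5, Faiml, Prss37, Actrt3, Gm30302 and Mphosph6, named above for their ratios, were about as high in that set or higher. In the whole Dcdc2c and Hemgn set, shared cells included, Trp53tg5 was at 1099 CPM in A0 and 1058 in A10. Faiml was there at 324 and 289, Prss37 at 805 and 712 and Actrt3 at 491 and 438. Gm30302 was at 106 and 90.5 CPM, against 90 and 80.6 in the chosen cells. Mphosph6 was at 99.1 and 95.4, against 94.7 and 91.8. Rnf144a was lower in that set than in the chosen cells, at 68.3 and 63.6 CPM, and so was Ung, at 55.5 and 44. Genes higher in the chosen cells differed less, the leading one being Txnl4b with 37.5 against 13.1 CPM in A0 and 33.5 against 10.6 in A10. With the 450 cells highest in Prm1, Prm2, Prm3, Tnp1, Tnp2 and Car2 they shared 0 cells in either library. That set was higher in Prm1 (69153 CPM against 40494 in the chosen cells of A0, and 92889 against 56623 in A10) and Tnp1 (27179 against 15247 and 32563 against 19504), which it was chosen by. It was also higher in Tssk6, which did not choose it (1739 against 1271 and 1753 against 1279). Hils1 was lower there (1154 against 4306 and 1144 against 3936). Compared with it, the chosen cells held more Dcdc2c (178 against 5.5 CPM in A0 and 143 against 5.39 in A10), more Faiml (263 against 11.2 and 241 against 11.4) and more Ccdc168 (355 against 20.6 and 362 against 19.2). The Odf1 and Tssk6 set was higher than the chosen cells in Prm2, at 70492 against 46012 CPM in A0 and 77224 against 47549 in A10. Car2 was higher there too (1406 against 838 and 1441 against 872), as was Prm1 (42104 and 62688). Tnp1 (11575 and 16545), Tnp2 (17528 against 29004 and 21209 against 31461) and Hils1 (1349 and 1193) were lower there. All comparator sets were chosen on these data too, and the differences are descriptions.

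By chromosome, the X had the highest share of higher genes. Of 229 X-linked genes past the filter, 58 (25.3%) were at least 2-fold higher in both libraries, against 11.8% of all genes, and 75 (32.8%) lower, against 53.2%. X-linked transcripts made up 1.75% of UMIs in the chosen cells against 0.859% in the others of A0, and 1.84% against 0.842% in A10. A rise in this share was not particular to the X: chromosome 16, which carries Prm1, Prm2, Prm3 and Tnp2, made up 14.4% against 5.9% in A0 and 16.3% against 6.39% in A10. After Cypt15, which the rule used, the leading X-linked genes were Gm28269, with 228 against 37.6 CPM in A0 and 274 against 38.3 in A10, and 4930567H17Rik, with 67.7 against 13 and 93.9 against 17.1. Sh3kbp1, an adaptor of receptor endocytosis, had 264 against 55 CPM in A0 and 272 against 53.2 in A10. Of 10 listed genes of X-linked multicopy families past the filter, 6 were higher (5 Cypt genes, Cypt15 included, and 4930567H17Rik) and 3 lower, Ssxb1, Ssxb2 and Ssxb3, with log2 ratios of -3.35, -3.50 and -2.48 in A0. These 3 were seen in under 5% of the chosen cells of each library, so they passed the filter only through the other cells, which favors a lower ratio. Of 10 Y-linked genes past the filter, 0 were higher and 8 lower, with a median log2 ratio of -1.89 in A0 and -1.99 in A10 beside -1.23 over all genes. Of the 4 genes of the Y list past the filter, 3 were lower in CPM, but relative to the median gene 0 were lower and 1 was higher, and Zfy1 turned from -1.09 to 0.14 in A0. Zfy1 and Uba1y, both among the lower Y-linked genes, were seen in under 5% of the chosen cells of each library. They too passed the filter only through the other cells, which favors a lower ratio. As background, the X and Y chromosomes are silenced in spermatocytes, and the other cells were not divided by type here.

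**Figure D4:**
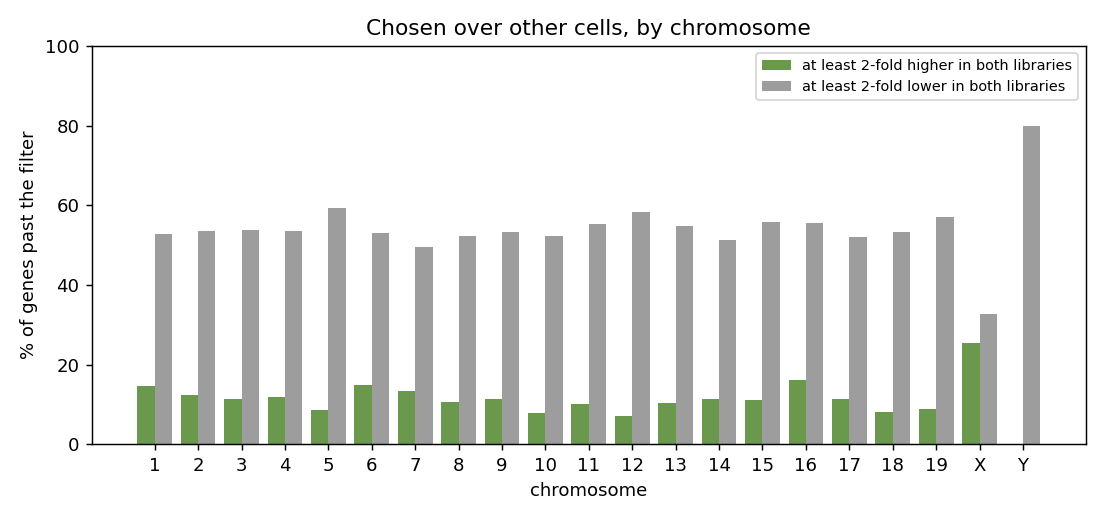
Percent of the genes past the filter on each chromosome that were at least 2-fold higher (green) or lower (grey) in the chosen cells than in the other cells, in both A0 and A10. The X chromosome has 25.3% higher and 32.8% lower genes, and the Y chromosome, with 10 genes, has 0% higher and 80% lower. Some of the lower genes passed the filter only through the other cells.

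The cutoff was set so that A0 has 450 cells, and the share at it in A10 is given as a description. The lowest chosen score of A0 was reached by 450 cells of A0 (5.03%, fixed by the rule) and 487 cells of A10 (5.03%, interval 4.6 to 5.48). With all cells thinned to 6500 UMIs and the score recomputed, the cutoff was again set at 450 cells of A0. It was then reached by 5.09% of the cells of A10 (4.66 to 5.55). These intervals cover only the counting of cells in the pooled A10 library and do not compare the treatments.

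Within the chosen cells, 6739 genes were compared between A10 and A0. At least 1.5-fold higher in A10 were 180 genes (2.67%), of which 142 had a counting interval above 0, and at least 1.5-fold lower were 226 (3.35%), of which 162 had an interval below 0. Most were rare transcripts: 151 of the 180 and 197 of the 226 were below 20 CPM in both libraries, and with 10 CPM added in place of 1 only 12 and 13 genes passed. The counting intervals came from the same UMI sums that picked the genes, so they are not separate support. Relative to the median gene, at -0.06, the counts were 243 and 164, so that the share of higher calls moved from 44.3% to 59.7%. Of the 6 genes that chose the cells, Cypt15 differed most, with 305 CPM in A0 and 383 in A10 (log2 ratio 0.33, interval 0.23 to 0.42), and 0.13 in the other cells. None of the 6 reached 1.5-fold.

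Of the 9 genes of the late spermatid list, 0 reached 1.5-fold in either direction, beside 2.67% of all genes higher and 3.35% lower, so little can be read from 9 genes. Prm1 was higher in A10, at 56623 against 40494 CPM (log2 ratio 0.48, interval 0.48 to 0.49), and it was higher by 0.45 in the other cells as well. Tnp1 was higher by 0.36 in the chosen cells and 0.32 in the others, while Prm2 differed by 0.05 and 0.06. Hils1 and H1fnt were lower in A10, at -0.13 and -0.17 in the chosen cells and -0.14 and -0.23 in the others. In the cells highest in spermatocyte markers Prm1 also stood higher in A10 (3638 against 3029 CPM), and the part of free RNA in these differences was not tested.

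For the largest differences, values in the other cells are given beside those in the chosen cells. Of the 16 genes named for them, BC029214 and Gss were seen in over 5% of the chosen cells of both libraries. The other 14 passed the filter only through the library where they were higher, which favors a difference, so these values are descriptions. Highest in A10 was BC029214, with 12.9 CPM in A0 and 47 in A10 (log2 ratio 1.79), against 1.00 in the other cells. Gss, glutathione synthetase, had 8.2 and 27.5 CPM (1.63, 1.27 to 2.23), against 0.80 in the others, and Speer1 had 3.05 and 9.98 CPM (1.44) against 1.77. For Sept7, a septin gene of the cytoskeleton, the chosen cells had 3.38 and 9.98 CPM (1.33, 0.81 to 2.37), and the other cells differed by 0.03. Those of Socs6, Slco6d1, Aacs and Scrt1 rested on 24 to 43 UMIs in A10, and the other cells differed by -0.02, 0.05, 0.21 and -0.12. Lowest was Cpne7, a copine gene, with 39 UMIs (6.27 CPM) in A0 and 0 in A10. A count of 0 allows up to 3 UMIs, or 0.576 CPM. The counting interval of the log2 ratio of Cpne7 ended at -3.08. Cpne7 was also lower in the other cells, at 0.643 and 0.0361 CPM. 1600014C10Rik had 12.5 and 1.73 CPM (-2.31), with -2.24 in the others, and Fam131c had 13 and 2.5 CPM, with 1.25 and 0.245 CPM in the others. Nek7, a mitotic kinase gene, had 15.9 and 3.65 CPM (-1.86, -2.92 to -1.41), with -0.59 in the others. Blnk, Nectin4, Slc22a20 and Cd320 had log2 ratios from -1.69 to -1.53, with -0.34, -0.68, -0.77 and -0.90 in the others. At low levels the added 1 shrinks a ratio. Without it, the intervals of these 4 in the other cells were -1.22 to -0.39, -1.22 to -0.75, -1.66 to -1.04 and -1.01 to -0.87. Since each library pools 6 mice once, a difference between these libraries and a difference between treatments cannot be told apart.

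**Figure D5:**
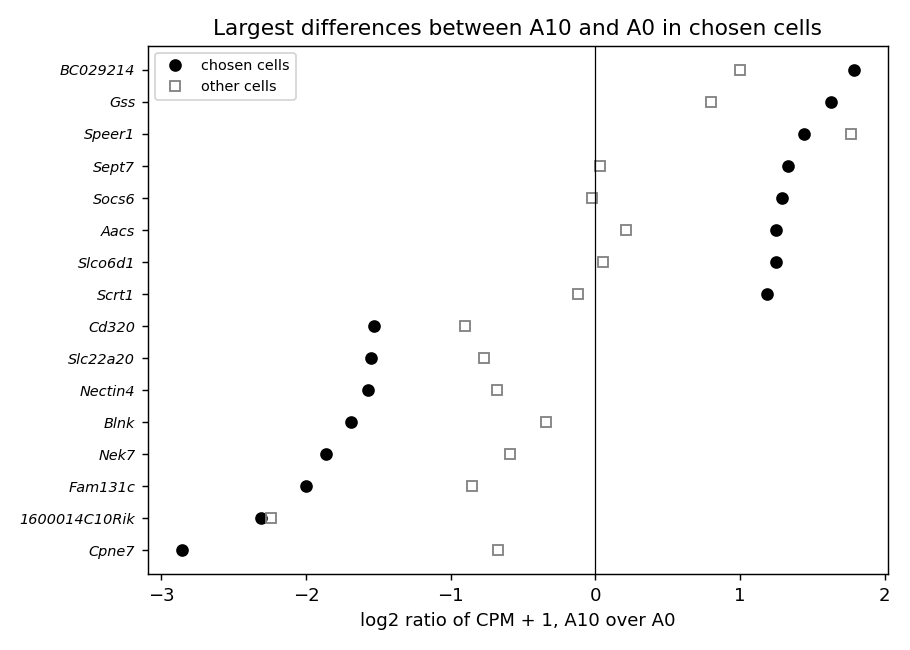
Log2 ratio of CPM plus 1 in A10 over A0 for the 8 highest and 8 lowest genes in the chosen cells (filled circles), with the same ratio in the other cells (open squares). BC029214 is at 1.79 in the chosen cells and 1.00 in the others, and 1600014C10Rik at -2.31 and -2.24, while Sept7 is at 1.33 and 0.03.

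Such cells were rare in the busulfan libraries. In B0, 0 of 4659 cells reached the lowest chosen score of A0, which allows a share of up to 0.0644% by a limit of 3 cells (0.0791% by the exact binomial interval), and 0 cells held all 6 genes. The median depth of B0 was 4214 UMIs per cell. In BA10, 3 of 3778 cells reached it (0.0794%, interval 0.0164 to 0.232), and 13 cells held all 6 genes, at a median depth of 17989 UMIs. Cst13 stood at 1.9 CPM in B0 and 7.93 in BA10 over all cells, against 316 in A0 and 289 in A10.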

How the data were processed

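The deposited values are on a natural log scale: the authors counted reads with Cell Ranger 2.2.0 on mm10 (per the labels), normalized with Seurat, scaled each cell to 10000 and stored the log of the scaled value plus 1. UMIs were recovered from them, whole within 0.001 for 100% of values, for 18419 genes. Cells, gene lists and the 6 rule genes were chosen with earlier results of these data known. Named genes were those of the lists, the 15 highest and 10 lowest ratios in both libraries, and the 8 largest differences of each sign between A10 and A0, with genes kept where 5% or more of the cells in a compared set had a UMI. Gene positions came from GENCODE, with 17546 symbols matched. Intervals are exact at 95% (binomial, or for ratios of UMI sums conditional binomial). With 1 library per group no p-value was computed. Doublets were kept; Scrublet assumed a rate of 6%. The calculation of pooled ratios was tested on simulated data, where 4-fold falls of genes at low levels were recovered less often than those of abundant genes. The simulated sums held counting error only, with no spread between cells or libraries and no choice of cells by score. Python 3 with numpy, scipy, pandas and scanpy was used. The methods of the study give 2 weeks of AOS dosing and its results text 5 weeks.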

Additional observations from a re-analysis of the deposited data

How the results depend on the processing

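Choosing the cells by a score without any 1 of the 6 genes, by mean CPM, without Scrublet calls, above a common limit of 7687 UMIs or with the lowest chosen score of A0 in both libraries kept all 4 counts of genes within 1.5 times. With 10 CPM added, 686 genes were higher and 2780 lower in the chosen than in the other cells, and 12 and 13 in A10 than in A0. Centred on the median gene, an alternative added after the data were seen, 2543 genes were higher and 1862 lower in the chosen cells. For A10 over A0, the higher and lower counts were 103 and 371 with a score from thinned counts, 396 and 390 with 50% as many cells, 57 and 119 with 900 cells, 740 and 677 without a filter, and 75 and 102 with a filter of 10% of cells, so these counts depend on the choice of cells and on rare genes. Chosen cells with mostly chosen neighbors were 68.7% (A0) and 63.8% (A10) with thinned scores, 76.4% (A0) with mean CPM, 37.3% and 7.56% with 50% as many cells, and 88% and 88.7% with 900 cells. Among ratios of single genes of at least 2-fold (1.5-fold for A10 over A0), 11 changed sign under the alternatives, all when centred: Prss38 (0.15, A0), Prss45 (0.22, A10), Cst3 (0.04, A0), Spaca3 (0.04 and 0.06), Izumo1 (0.07, A10), Tssk4 (0.13 and 0.09), Zfy1 (0.14 and 0.19) and Uba1y (0.03, A0). Smaller ratios between that of the median gene and 0, such as those of Ldhc, turned there as well and are not in this number. No paired analysis was possible because each group is 1 library. Depth limits the comparison of A10 with A0, where the chosen cells held 6220854 UMIs in A0 and 5208263 in A10.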
